A study of Homo sapiens with 6 samples.

Results

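The transcription regulator YAP1, its DNA-binding partner TEAD1 and 8 of their textbook target and feedback genes (CTGF, CYR61, ANKRD1, AMOTL1, AMOTL2, LATS2, AJUBA and AXL) were followed by RNA-seq in 22Rv1 cells, a human prostate carcinoma epithelial line. These 10 genes were chosen by symbol, with CTGF and CYR61 under their older names (now CCN2 and CCN1), out of the 29804 symbols in the deposited count table. All 10 have a row there, and 8 of them were expressed highly enough to be among the 14672 genes tested. Each of the 3 groups held 2 libraries, given as biological replicates. WT cells were untreated and collected at week 0, AM (age matched) cells grew for 6 weeks with no phleomycin, and 6WP cells were given 1 µg/ml phleomycin, a radiomimetic drug that breaks DNA, every week day for 6 weeks. All cells were genotype WT and came from this single line, so the AM and 6WP groups share the time in culture and the WT group does not. The density of the dishes at harvest is not given in the sources used here.

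In the Hippo pathway, the kinases STK3 and STK4 activate LATS1 and LATS2, which phosphorylate YAP1 and its paralog TAZ (gene symbol WWTR1) and keep them out of the nucleus. YAP1 and TAZ that reach the nucleus bind TEAD factors and switch on genes for secreted matricellular proteins such as CTGF and CYR61, and also genes such as LATS2 and AMOTL2 whose products restrain YAP1 in turn. Cell density, attachment and tension of the cytoskeleton act on the pathway largely through YAP1 protein, whose phosphorylation and location an RNA measurement does not see.

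Library totals ranged from 21222201 to 35311945 counts. Levels below are CPM, counts scaled to the library total and by TMM factors, and 3 counts, taken as the smallest detectable amount, equal 0.0883 to 0.138 CPM, for counting error only. The replicates of the 6WP group stood furthest apart, with a median SD between replicates of 0.196 on the log2 scale against 0.0854 in WT and 0.0911 in AM cells. Fold changes are on the log2 scale, with standard errors (SE), 95% intervals and p-values from edgeR's quasi-likelihood test fitted to all 6 libraries and Benjamini-Hochberg adjustment over all tested genes. A gene is said to rise or fall only where this adjusted p is under 0.05. With 2 libraries a group, the smallest p of an exact two-sided permutation test is 0.333. The 3 comparisons share libraries, so their values for a gene are given side by side and are not independent. In these bulk libraries fewer expressing cells and less RNA per cell cannot be told apart. The luminal prostate epithelial markers KLK3 and KRT8 measured 49.3 to 107 CPM and 140 to 274 CPM over the libraries, while the markers of basal epithelial and endothelial cells summed to at most 0.179 CPM in any library. The 8 stromal fibroblast markers summed to 17.1 to 21.0 CPM in the WT libraries and to 2.27 to 5.57 CPM in the other libraries.

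YAP1 RNA was highest in WT cells, lowest in AM cells and intermediate in 6WP cells. The YAP1 gene lies on chromosome 11 from 102110447 to 102233424 (GRCh38, plus strand). It measured 83.8 and 83.9 CPM (WT), 43.6 and 40.3 (AM) and 60.9 and 56.4 (6WP). No library of any group overlapped another group. In AM against WT cells YAP1 fell 2.00-fold (SE 0.11 on the log2 scale, interval -1.25 to -0.75, adjusted p = 0.00304). The log2 fold change was 0.48 in 6WP against AM cells (SE 0.11, adjusted p = 0.0205) and -0.52 in 6WP against WT cells (SE 0.11, adjusted p = 0.0486), just inside the threshold. TEAD1, the DNA-binding partner (chromosome 11, 12674421 to 12944737, plus strand), measured 57.0 and 57.2 CPM (WT), 54.0 and 50.7 (AM) and 43.7 and 49.6 (6WP). Its libraries were ordered WT, AM, 6WP without overlap, over a narrow range. None of its comparisons passed the test, with intervals of -0.39 to 0.14 for AM against WT, -0.43 to 0.10 for 6WP against AM and -0.56 to -0.03 for 6WP against WT on the log2 scale.

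CTGF, a secreted matricellular protein and the most widely used readout of YAP1 and TEAD activity, had the widest range of the 8 tested genes. CTGF is encoded on chromosome 6 from 131948176 to 131951372 (minus strand). Its reads numbered 262 and 397 (WT), 35 and 42 (AM) and 104 and 107 (6WP). These counts correspond to 11.7 and 18.2 CPM (WT), 1.51 and 1.24 (AM) and 3.76 and 3.77 (6WP). The 3 groups do not overlap, and both 6WP libraries lie above both AM libraries and below both WT libraries. In AM against WT cells CTGF fell by 3.46 on the log2 scale (SE 0.28, interval -4.10 to -2.81, adjusted p = 0.00157), an 11.0-fold lower level and the twelfth smallest p of all tested genes in that comparison. The sum of the 8 stromal fibroblast markers was also lower in AM than in WT libraries, at 3.40 and 2.27 against 21.0 and 17.1 CPM. LUM alone gave 15.4 and 12.4 CPM of the WT sums, and COL3A1 was not lower (means of 0.795 CPM in AM and 0.746 in WT). The part of these markers in the CTGF result was not tested. The 6WP level was 2.77-fold above that of AM cells (log2 fold change 1.47, SE 0.29, adjusted p = 0.0129) and 3.97-fold below that of WT cells (-1.99, SE 0.25, adjusted p = 0.00899). The exons of CTGF share 278 bases with LINC01013 on the opposite strand, and whether the counting used strand is not stated, but LINC01013 had 0 counts in all 6 libraries.

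CYR61, the matricellular paralog of CTGF (chromosome 1, 85580761 to 85584589, plus strand), followed a similar order of means with a much wider spread in 6WP cells. It measured 6.96 and 10.7 CPM (WT), 4.31 and 5.06 (AM) and 7.81 and 3.95 (6WP). The AM libraries were below both WT libraries, while the 6WP libraries differed 1.98-fold from each other and spanned all of the AM values. No comparison of CYR61 passed the test, with intervals of -1.70 to -0.12 for AM against WT (adjusted p = 0.100), -0.47 to 1.11 for 6WP against AM (adjusted p = 0.530) and -1.37 to 0.19 for 6WP against WT (adjusted p = 0.346). The filter and the libraries decided the CYR61 call, since AM against WT gave -0.91 with an adjusted p of 0.0473 when no filter on low counts was used and -0.90 with 0.00117 when only those groups were fitted. Without 6WP replicate 1 the log2 fold change in 6WP against AM cells was -0.26, of opposite sign.

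ANKRD1, a muscle-associated ankyrin repeat protein and a target gene in many adherent cells (chromosome 10, 90912096 to 90921087, minus strand), was practically absent. Its counts were 0 and 0 (WT), 0 and 1 (AM) and 1 and 1 (6WP). AXL, a receptor tyrosine kinase for the ligand GAS6 (chromosome 19, 41219223 to 41261766, plus strand), gave 1 count in WT replicate 2 and 0 in the other 5 libraries. Both genes stayed below the floor of 3 counts in every library, were not tested, and are given no fold.

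The promoters of CTGF, ANKRD1 and YAP1 are shown because they hold the TEAD core motif, GGAATG or its reverse complement CATTCC, while their RNA ranged from no detectable amount to clear differences between the groups. The sequences are the 250 bases before the RefSeq start (GRCh38.p14), read 5′ to 3′ on the strand of the gene, with the motif in capitals. They lie at chr6:131951373-131951622 (CTGF, minus strand), chr10:90921088-90921337 (ANKRD1, minus strand) and chr11:102110197-102110446 (YAP1, plus strand).
CTGF: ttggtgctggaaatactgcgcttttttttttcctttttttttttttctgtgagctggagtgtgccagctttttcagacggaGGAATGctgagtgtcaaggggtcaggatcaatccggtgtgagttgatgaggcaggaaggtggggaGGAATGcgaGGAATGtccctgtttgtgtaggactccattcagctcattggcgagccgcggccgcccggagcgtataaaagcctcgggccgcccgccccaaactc
ANKRD1: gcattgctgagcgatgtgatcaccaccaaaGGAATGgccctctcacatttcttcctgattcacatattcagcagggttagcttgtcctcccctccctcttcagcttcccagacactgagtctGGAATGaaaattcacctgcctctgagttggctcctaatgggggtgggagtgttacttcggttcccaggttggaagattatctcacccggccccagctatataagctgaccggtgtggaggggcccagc
YAP1: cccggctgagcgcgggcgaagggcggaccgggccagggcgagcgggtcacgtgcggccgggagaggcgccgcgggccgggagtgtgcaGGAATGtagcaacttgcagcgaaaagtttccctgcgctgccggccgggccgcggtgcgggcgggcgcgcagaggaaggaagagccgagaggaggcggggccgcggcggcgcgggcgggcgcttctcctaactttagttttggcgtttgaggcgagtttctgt
In CTGF the motif occurs 3 times, beginning 169, 104 and 95 bases before the start, and all 3 are written in the direction of the gene. ANKRD1 has it at 220 and 128 bases before the start, although almost no ANKRD1 RNA was counted. YAP1 itself has 1 copy, at 162 bases. RefSeq promoters were matched for 8 of the 10 genes in 11 windows (3 of the genes have more than 1 start), and GGAATG or CATTCC is present in 6 windows of 6 genes. AJUBA, AMOTL2 and AXL each have 1 copy, in the window of the second start only, and the windows of LATS2 and AMOTL1 have none. Among all 35116 RefSeq promoter windows of the same length, 11.9% hold at least 1 copy, 0.94% at least 2 and 0.0826% at least 3. The AP-1 motif TGACTCA or TGAGTCA (4.2% of all promoters) and the CArG box bound by SRF (1.16%) were searched on both strands and were found in none of the 11 windows. Such matches describe letters only, not binding.

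**Figure D1:**
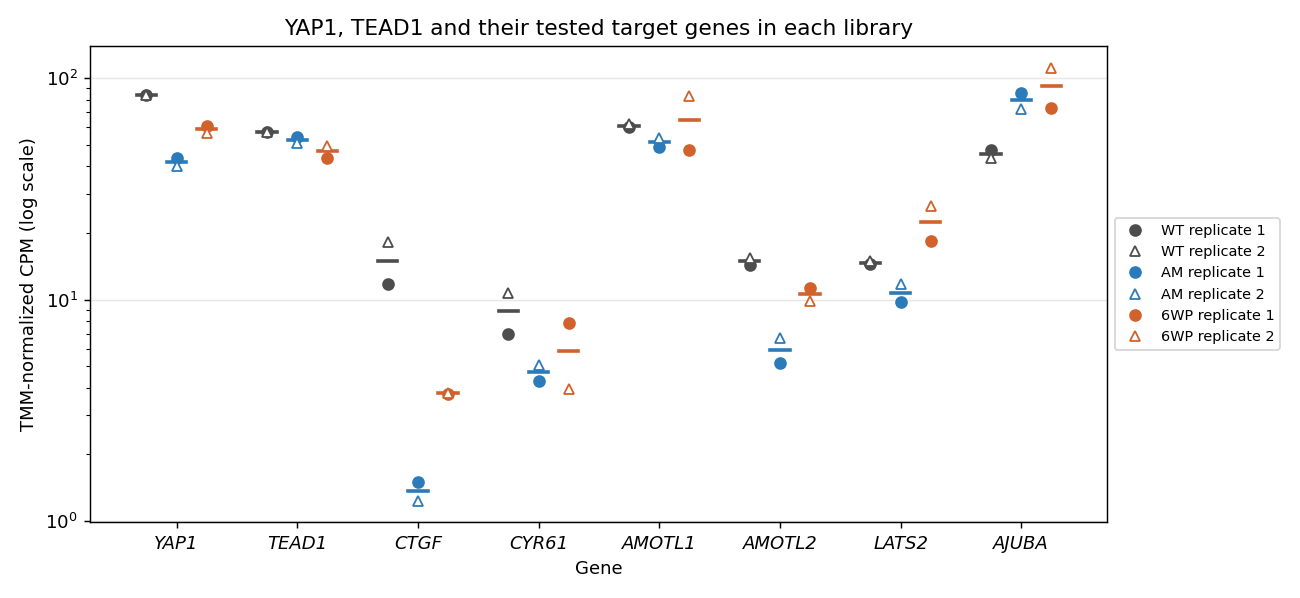
TMM-normalized CPM (log axis) of YAP1, TEAD1 and the 6 tested target or feedback genes in each of the 6 libraries, with circles for replicate 1, triangles for replicate 2 and a bar at the mean of each group. For YAP1, CTGF and AMOTL2 all WT points lie above all 6WP points and these above all AM points, whereas AJUBA is lowest in WT and the 6WP points of CYR61, AMOTL1, LATS2 and AJUBA lie far apart.

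The feedback genes did not share 1 pattern. AMOTL2 (chromosome 3, 134355347 to 134375479, minus strand), an angiomotin-like scaffold that binds YAP1 and holds it outside the nucleus, measured 14.4 and 15.4 CPM (WT), 5.17 and 6.71 (AM) and 11.3 and 9.87 (6WP). All groups were separate, in the same order as CTGF. In AM against WT cells AMOTL2 fell by 1.32 on the log2 scale (SE 0.18, adjusted p = 0.00603), and in 6WP against AM cells it rose (0.82, SE 0.18, adjusted p = 0.0197). In 6WP against WT cells its value of -0.49 did not pass (interval -0.90 to -0.08, adjusted p = 0.160). Its paralog AMOTL1 (chromosome 11, 94706431 to 94876748, plus strand) measured 60.1 and 61.8 CPM (WT), 48.7 and 53.8 (AM) and 47.2 and 82.7 (6WP). The 6WP libraries lay on either side of all the others. AMOTL1 passed in no comparison (adjusted p = 0.467, 0.311 and 0.853 for AM against WT, 6WP against AM and 6WP against WT). Without 6WP replicate 2 its value in 6WP against WT cells was -0.40, and without 6WP replicate 1 it was 0.42. The single 6WP libraries thus gave opposite signs.

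LATS2, the kinase that phosphorylates YAP1 and is also a YAP1 target (chromosome 13, 20973036 to 21061586, minus strand), was highest in the phleomycin-treated cells. It measured 14.5 and 14.9 CPM (WT), 9.77 and 11.7 (AM) and 18.4 and 26.4 (6WP). Both 6WP libraries exceeded all others, and both AM libraries lay below both WT libraries. LATS2 rose in 6WP against AM cells by 1.06 on the log2 scale (SE 0.20, adjusted p = 0.0112), while 6WP against WT gave 0.61 (interval 0.16 to 1.06, adjusted p = 0.125) and AM against WT gave -0.45 (interval -0.91 to 0.01, adjusted p = 0.150). AJUBA, a LIM domain protein that binds LATS kinases and lowers their activity (chromosome 14, 22971177 to 22982551, minus strand), ran against the others. Its level was 47.4 and 43.4 CPM (WT), 86.0 and 72.8 (AM) and 73.3 and 112 (6WP). Every library of the cells cultured for 6 weeks exceeded both WT libraries, and the AM and 6WP libraries overlapped. AJUBA rose in AM against WT cells by 0.81 (SE 0.20, adjusted p = 0.0293) and in 6WP against WT cells by 1.03 (SE 0.20, adjusted p = 0.0387), with 0.22 in 6WP against AM cells (interval -0.22 to 0.66, adjusted p = 0.436). Without 6WP replicate 2 the AJUBA value in 6WP against AM cells was -0.14, of opposite sign. Exons of AMOTL1 and YAP1 share 496 and 639 bases with other loci on the opposite strand, and those of AMOTL2 and AJUBA share 187 and 50 bases with other loci on the same strand, whose part in the counts was not tested.

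**Figure D2:**
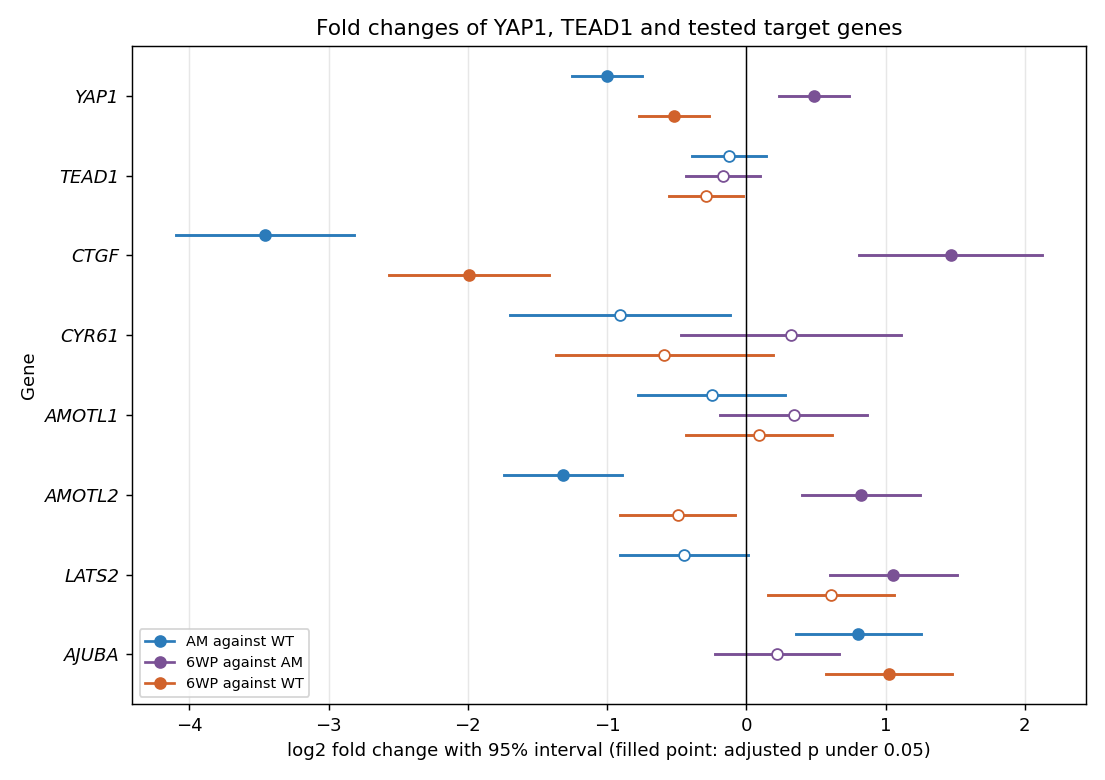
Log2 fold changes of the 8 tested genes with 95% intervals from the edgeR fit for AM against WT, 6WP against AM and 6WP against WT, where filled points have an adjusted p under 0.05 and the vertical line marks no change. CTGF lies furthest from 0 at -3.46, -1.99 and 1.47, and AJUBA is the 1 gene with a filled point to the right of 0 in AM against WT and in 6WP against WT.

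AM against WT asks what 6 weeks of untreated culture changed. Of the 10 genes, 3 fell (CTGF, AMOTL2 and YAP1), 1 rose (AJUBA), 4 did not pass and 2 were not tested, where 17.7% of all tested genes passed the same test (7.74% higher and 9.93% lower). The median log2 fold change of the 8 tested genes was -0.68 against -0.0023 over all tested genes. Upper quartile scaling lowered the share of higher genes among all called genes from 43.8% to 27.3%, and scaling by library size alone lowered it to 30.5%. CTGF passed under all 14 alternatives. The AMOTL2 and AJUBA calls were lost without any 1 of the 4 WT and AM libraries (adjusted p from 0.0566 to 0.0833 and from 0.124 to 0.200), and the YAP1 call without WT replicate 1, WT replicate 2 or AM replicate 2 (adjusted p from 0.0598 to 0.0658), with fold changes of the same direction. Without 6WP replicate 1 or 6WP replicate 2, CYR61, AMOTL1 and LATS2 also passed, each lower in AM cells. Many more of all tested genes passed there as well. The AM and WT libraries were the same, and the values of CYR61 (-0.92 and -0.90) and AMOTL1 (-0.26 and -0.24) stayed near -0.91 and -0.25.

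6WP against AM compares cells of the same time in culture with and without phleomycin. CTGF, AMOTL2, LATS2 and YAP1 were higher in 6WP cells and none of the 10 was lower by this test, against a background of 21.3% of all tested genes called (11.7% higher and 9.68% lower). The median over the 8 tested genes was 0.41, against 0.05 over all tested genes. Under upper quartile scaling 68.2% of all called genes were higher in place of 54.6%, and the 4 calls stayed. The calls of CTGF and LATS2 were lost without AM replicate 1 (adjusted p = 0.0814 and 0.106) or AM replicate 2 (0.113 and 0.0732), and those of AMOTL2 and YAP1 without any 1 of the 4 WT and AM libraries (adjusted p from 0.0582 to 0.153 and from 0.0693 to 0.172). Without 6WP replicate 1, AMOTL1 (0.68) and AJUBA (0.49) passed as well, and without 6WP replicate 2, CYR61 did (0.70). More of all tested genes also passed in both of these fits than in the main fit.

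6WP against WT compares the treated cells with the starting population. AJUBA was higher and CTGF and YAP1 were lower, so 3 of the 10 genes passed where 3.00% of all tested genes did (1.63% higher and 1.37% lower). The median of the 8 tested genes was -0.39, against 0.01 over all tested genes. No gene of the whole table passed when either WT library was left out (1456 and 1900 genes had an unadjusted p under 0.05, DESeq2 not run there), so the adjusted p of CTGF became 0.107 without WT replicate 1 and 0.143 without WT replicate 2. The YAP1 and AJUBA calls were also lost without AM replicate 1 (adjusted p = 0.138 and 0.101) and without AM replicate 2 (0.137 and 0.102). Without 6WP replicate 1, CYR61 (-1.18), AMOTL1 (0.42), AMOTL2 (-0.61) and LATS2 (0.83) also passed. Without 6WP replicate 2, TEAD1 (-0.41) and AMOTL1 (-0.40) did, AMOTL1 with the opposite sign. Many more of all tested genes passed in both of these fits than in the main fit.

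Compared per kilobase of exon (CPM divided by the length of the union of exons), YAP1 had the highest level of the 10 genes in WT cells, with a mean of 13.3 CPM per kilobase. AJUBA followed at 7.71, then CTGF at 6.40, AMOTL1 at 6.08 and TEAD1 at 5.34, and LATS2 (2.62), CYR61 (2.39) and AMOTL2 (2.30) were lower. The CTGF libraries spread widely, the higher at 7.80 CPM per kilobase, and overlapped those of AJUBA, AMOTL1 and TEAD1, and the CYR61 libraries overlapped those of LATS2 and AMOTL2. In AM cells AJUBA led at 13.5, ahead of YAP1 at 6.65, and CTGF was the lowest tested gene at 0.587 CPM per kilobase, below AMOTL2 at 0.917. In 6WP cells AJUBA stood at 15.7, YAP1 at 9.29 and CTGF at 1.61, where CTGF lay between the libraries of CYR61 (2.11 and 1.07) and of AMOTL2 (1.74 and 1.52).

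Over the 6 libraries, Pearson's r of log2 CPM with CTGF was 0.986 for YAP1, 0.934 for AMOTL2, 0.759 for CYR61, 0.464 for TEAD1, 0.347 for AMOTL1, 0.321 for LATS2 and -0.739 for AJUBA. These points are 3 pairs of replicates, so r describes the order of 3 groups and carries no test. YAP1 ranked 18th of the 4520 other tested genes whose log2 CPM spanned at least 1. The 5 genes most like CTGF by this measure were PPP1R3D (0.993), SCN9A (0.992), APOL2 (0.992), PSD3 (0.992) and MYO10 (0.990). PPP1R3D, for example, averaged 6.30 CPM (WT), 2.69 (AM) and 3.67 (6WP).

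TAZ, the paralog of YAP1, had the same order of groups as YAP1. WWTR1 measured 26.8 and 29.5 CPM (WT), 14.1 and 13.7 (AM) and 18.7 and 20.8 (6WP). Its groups do not overlap. WWTR1 fell by 1.02 in AM against WT cells (SE 0.13, adjusted p = 0.00491) and rose by 0.51 in 6WP against AM cells (SE 0.13, adjusted p = 0.0330), with -0.52 and an adjusted p of 0.0770 in 6WP against WT. Of the 8 partners and cofactors of YAP1, 6 were tested. Of these, 2 passed in AM against WT, 1 in 6WP against AM and 0 in 6WP against WT (3 with an unadjusted p under 0.05, 1 by DESeq2). Of all tested genes 17.7%, 21.3% and 3.00% did. The call beside WWTR1 was VGLL3, a TEAD cofactor, in AM against WT (adjusted p = 0.0391). It had 11 and 9 counts (WT), 3 and 2 (AM) and 2 and 4 (6WP), so it was kept for testing through the WT group and is given no fold. Its call was lost in 7 of 12 alternatives, with an adjusted p of up to 0.298. TEAD2, TEAD3 and TEAD4, the paralogs of TEAD1, passed in no comparison. TEAD2 measured 85.1 and 85.2 CPM (WT), 105 and 117 (AM) and 121 and 103 (6WP). Its AM and 6WP libraries lay above both WT libraries (0.39 and 0.40 against WT, adjusted p = 0.0631 and 0.111). TEAD3 and TEAD4 ranged from 7.19 to 12.7 CPM and from 14.3 to 18.5 CPM.

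Of the 17 paralogs and the ligand listed beside the 10 genes, 13 were tested. WWTR1 and NOV were the calls in AM against WT (2 lower) and in 6WP against AM (2 higher), and in 6WP against WT the test made 0 calls (3 with an unadjusted p under 0.05, 2 by DESeq2). Of all tested genes 17.7%, 21.3% and 3.00% passed in these comparisons. NOV, a further matricellular paralog of CTGF, measured 9.06 and 8.18 CPM (WT), 4.26 and 3.24 (AM) and 8.21 and 5.46 (6WP). The AM libraries were the lowest, and the WT and 6WP libraries overlapped. NOV fell by 1.21 in AM against WT cells (adjusted p = 0.0188) and rose by 0.87 in 6WP against AM cells (adjusted p = 0.0439). The remaining paralogs of CTGF, WISP1, WISP2 and WISP3, had at most 10, 3 and 0 counts in a library. AMOT, the founding angiomotin, measured 62.8 and 63.2 CPM (WT), 43.8 and 46.9 (AM) and 30.6 and 43.5 (6WP), and missed the threshold in 6WP against WT (-0.77, adjusted p = 0.0530). LATS1 (59.6 to 79.0 CPM), LIMD1 (95.2 to 139 CPM) and WTIP (0.759 to 1.24 CPM), the latter both relatives of AJUBA, passed nowhere. The receptors TYRO3 (36.5 to 45.6 CPM) and MERTK (6.62 to 9.69 CPM), relatives of AXL, and their ligand GAS6 (0.940 to 1.93 CPM) were present and passed nowhere. ANKRD2 had at most 3 counts and ANKRD23 at most 32.

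A second list of 16 YAP-TEAD targets, compiled from general knowledge with earlier results of these data known, was called in both directions. In AM against WT and in 6WP against AM 4 of its 13 tested genes passed, where 17.7% and 21.3% of all tested genes did. Lower in AM than in WT were MYOF (-1.80, adjusted p = 0.00606), a membrane repair protein, NT5E (-1.59, adjusted p = 0.00760), the ecto-nucleotidase CD73, and PTPN14 (-0.94, adjusted p = 0.0117), a phosphatase that restrains YAP1. IGFBP3, an insulin-like growth factor binding protein, rose by 2.36 (SE 0.29, adjusted p = 0.00405). In 6WP against AM cells MYOF (1.23, adjusted p = 0.0150), NT5E (0.88, adjusted p = 0.0384) and the exchange factor ARHGEF17 (1.10, adjusted p = 0.0255) were higher and IGFBP3 was lower (-1.13, adjusted p = 0.0254). The IGFBP3 value was -1.74 without 6WP replicate 1 and -0.74 without 6WP replicate 2. MYOF measured 6.03 and 6.84 CPM (WT), 2.11 and 1.62 (AM) and 3.76 and 4.93 (6WP), without overlap and in the order of CTGF. IGFBP3 had the opposite order, at 25.7 and 24.2 CPM (WT), 127 and 130 (AM) and 78.8 and 38.6 (6WP). In 6WP against WT none of the 13 passed edgeR's test (6 with an unadjusted p under 0.05, 3 by DESeq2). Of all tested genes 3.00% (440 genes) passed edgeR's test there, and DESeq2 called 1124. The medians of the list were -0.22, 0.29 and -0.09 for AM against WT, 6WP against AM and 6WP against WT.

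**Figure D3:**
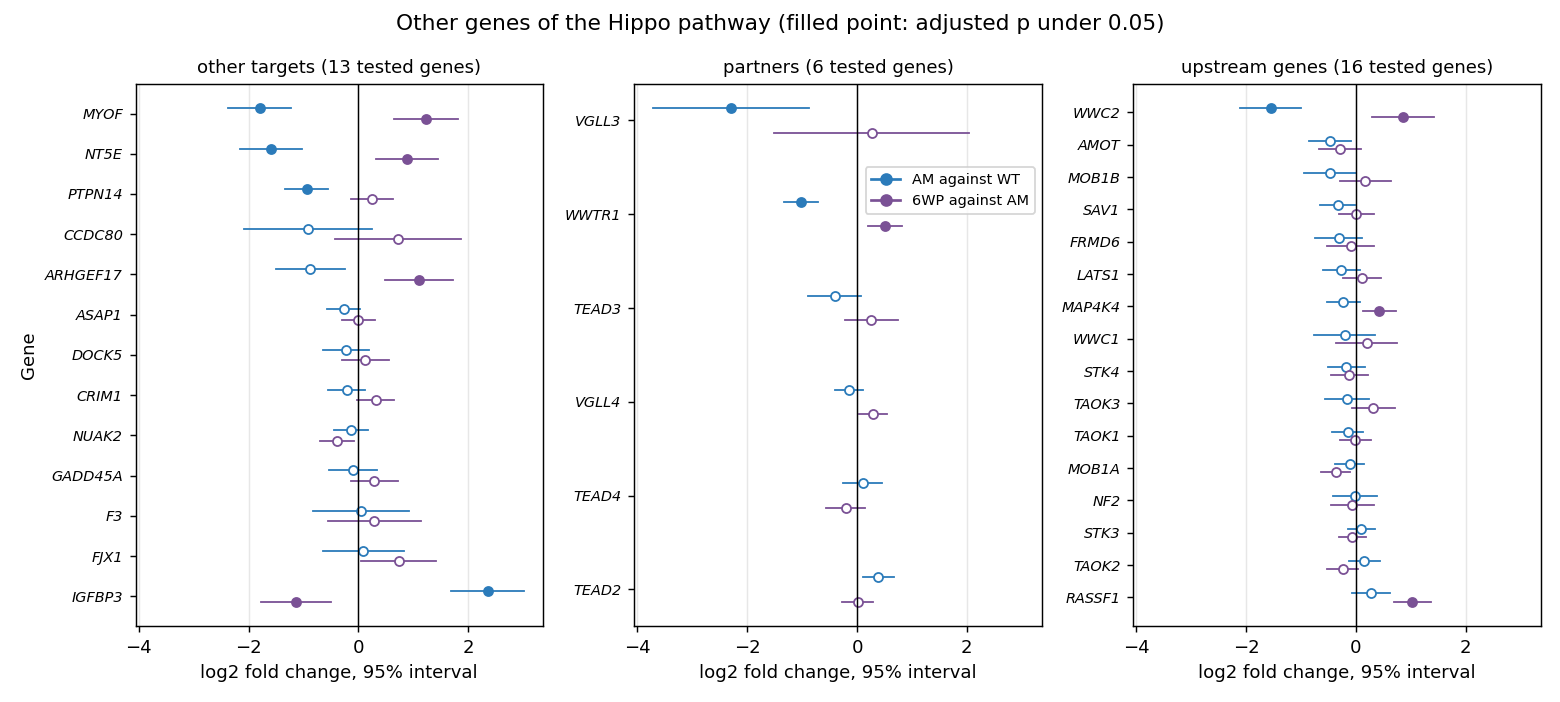
Log2 fold changes with 95% intervals of the tested genes among other YAP-TEAD targets (13), partners and cofactors (6) and upstream Hippo pathway genes (16), for AM against WT and 6WP against AM, with filled points for an adjusted p under 0.05. MYOF, NT5E, WWTR1 and WWC2 have filled points on opposite sides of 0 in the 2 comparisons, IGFBP3 has them the other way round, and most upstream genes lie near 0.

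Of 16 upstream genes of the pathway, all tested, 1 passed in AM against WT, 3 in 6WP against AM and 1 in 6WP against WT, where 17.7%, 21.3% and 3.00% of all tested genes did. WWC2, a scaffold that promotes LATS activation, fell in AM against WT cells (-1.55, adjusted p = 0.00784). In 6WP against AM cells WWC2 (0.86, adjusted p = 0.0402), the kinase MAP4K4 (0.43, adjusted p = 0.0475) and RASSF1 (1.03, adjusted p = 0.00546), a scaffold of STK3 and STK4, were higher, and none was lower. The MAP4K4 call was lost in 8 of 14 alternatives, with an adjusted p of up to 0.222. RASSF1 was also the 1 gene called in 6WP against WT (1.31, SE 0.15, adjusted p = 0.00710), at 14.7 and 19.1 CPM (WT), 20.4 and 20.6 (AM) and 43.3 and 40.5 (6WP). Both 6WP libraries lay far above the rest. The kinases STK3 and STK4 and the tumour suppressor NF2 passed in none of the comparisons.

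AP-1 factors, dimers of FOS and JUN proteins that often bind beside TEAD factors at shared target genes, were measured with 6 of 7 subunits tested. Of these, 3 passed in AM against WT and 2 in 6WP against AM, where 17.7% and 21.3% of all tested genes passed. FOS (-2.14, adjusted p = 0.0226), FOSB (-2.56, adjusted p = 0.0317) and JUN (-1.10, adjusted p = 0.0264) fell in AM against WT cells. The FOSB libraries of the WT group stood at 26.9 and 100 CPM, and without WT replicate 2 its value was -1.31 (adjusted p = 0.231) and that of FOS -1.55 (adjusted p = 0.168). JUN (1.08, adjusted p = 0.0236) and JUND (0.85, adjusted p = 0.0175) rose in 6WP against AM cells. In 6WP against WT none passed (1 with an unadjusted p under 0.05, 0 by DESeq2), where 3.00% of all tested genes did. FOS measured 172 and 340 CPM (WT), 41.5 and 74.2 (AM) and 204 and 84.3 (6WP), so that WT replicate 2, AM replicate 2 and 6WP replicate 1 were the higher library of each pair. This order was taken from FOS and ignores the size of the differences. It was found for 5 of the 6 tested subunits, FOS itself among them. CYR61 and AMOTL2, 2 of the 8 tested genes of interest (25%), also had it, against 15.0% of all tested genes. Some of the differences were small, as for JUN in the 6WP libraries (93.9 and 91.3 CPM). The part of such differences between replicates in the CYR61 and AMOTL2 values was not tested.

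**Figure D4:**
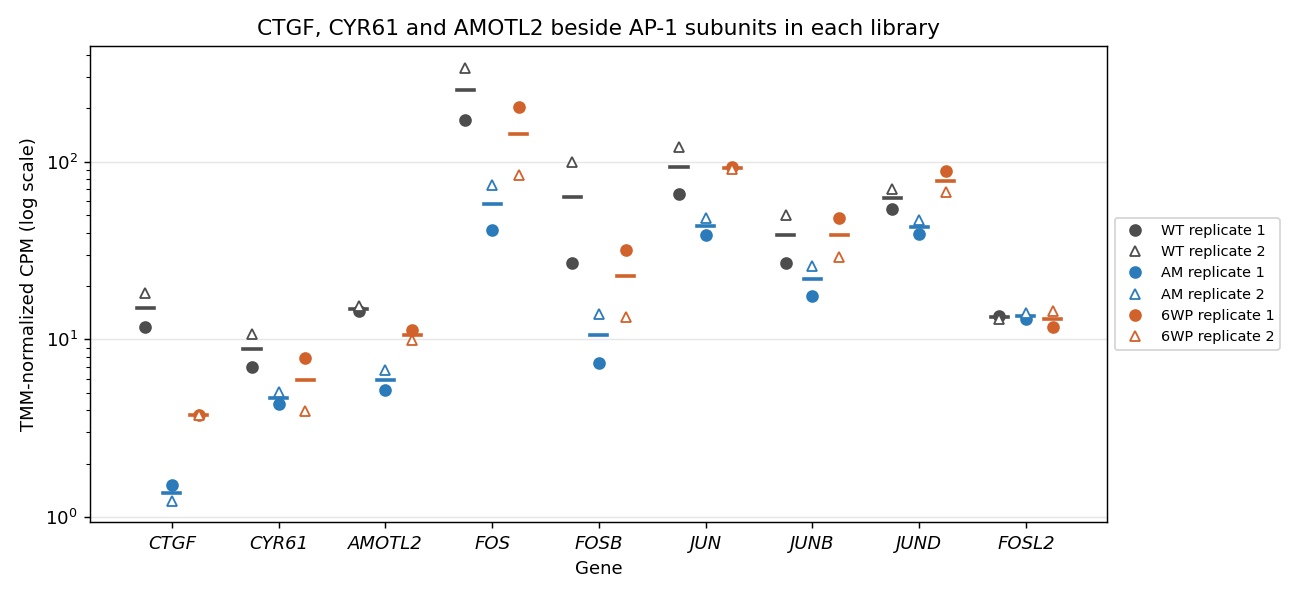
TMM-normalized CPM (log axis) of CTGF, CYR61 and AMOTL2 beside the 6 tested AP-1 subunits in each library, with circles for replicate 1, triangles for replicate 2 and bars for group means. FOS, FOSB, JUN, JUNB, JUND, CYR61 and AMOTL2 have a higher replicate 2 in WT and AM and a higher replicate 1 in 6WP. This order was taken from FOS, and 15.0% of all tested genes have it. The 6WP points of CTGF coincide at 3.76 and 3.77 CPM.

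Cytoskeletal genes driven by SRF and its cofactor MRTF, which also respond to tension, were called in 4 of 13 tested cases in 6WP against AM cells, in both directions, and in 3 in AM against WT cells, where 21.3% and 17.7% of all tested genes were called. The focal adhesion protein ZYX (1.06, adjusted p = 0.00379) and the actin ACTG1 (0.61, adjusted p = 0.0167) were higher, and CNN2 (-0.60, adjusted p = 0.0109) and FLNA (-0.60, adjusted p = 0.0122), both actin-binding proteins, were lower. In AM against WT cells ZYX (-0.59, adjusted p = 0.0244), ACTG1 (-0.59, adjusted p = 0.0215) and THBS1 (-0.68, adjusted p = 0.0249), a matricellular protein, fell. In 6WP against WT none passed (4 with an unadjusted p under 0.05, 1 by DESeq2), where 3.00% of all tested genes did.

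The summed markers of stromal fibroblasts, cells that express CTGF strongly, had the group order of CTGF, highest in WT and lowest in AM. The 8 markers summed to 21.0 and 17.1 CPM (WT), 3.40 and 2.27 (AM) and 5.57 and 3.42 (6WP). The lower 6WP sum was just above the higher AM sum. Of the 5 markers tested, LUM and DCN were called lower in AM against WT (adjusted p = 0.00178 and 0.00676) and in 6WP against WT (adjusted p = 0.00528 and 0.0142). The other 3 passed in neither, where 17.7% and 3.00% of all tested genes passed. The log2 fold change of LUM was -5.21 and -4.01. DCN had 39 and 37 counts (WT), 2 and 6 (AM) and 1 and 5 (6WP), so it was kept for testing through the WT group, where it is high, and is given no fold. LUM made up most of the WT sum, with 345 and 270 counts (WT), 11 and 10 (AM) and 36 and 12 (6WP). COL1A1 measured 2.46 and 2.02 CPM (WT), 1.64 and 1.00 (AM) and 1.88 and 1.52 (6WP). Its value in AM against WT was -0.79 and did not pass (adjusted p = 0.131). COL1A2 stayed at 0 to 2 counts and FAP at 0 in 5 of 6 libraries. In 6WP against AM, where CTGF was higher, none of the 5 passed (1 with an unadjusted p under 0.05, 0 by DESeq2). Of all tested genes 21.3% passed there. The median log2 fold change of the 5 was 0.71, against 0.05 over all tested genes. The part of these markers in the CTGF difference was not tested. Leukocyte markers summed to 2.31 to 3.66 CPM, from CD68, with PTPRC and CD3E at 0 counts in all libraries.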

How the data were processed

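RNA of 22Rv1 cells (WT, AM and 6WP, 2 libraries each) was prepared with a TruSeq stranded kit. Alignment of the single reads by the authors used STAR 2.5.3a and genome build hg38, with StringTie 1.3.3 for transcripts, and the submitters' processing notes also name featureCounts 1.5.3, edgeR 3.22.3 and R 3.5.0. The deposited values are raw counts per gene symbol. The gene annotation, the strand setting and any filter are not given in the sources used here.

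From these counts, filterByExpr with the 3 groups kept 14672 genes, which includes genes that pass through 1 group only. TMM factors and a quasi-likelihood fit to all 6 libraries were computed with edgeR 4.0.16 (R 4.3.3, limma 3.58.1), two-sided, with Benjamini-Hochberg adjustment and a threshold of 0.05. Each SE was derived from the log2 fold change and the F statistic. Totals of 21222201 to 35311945 counts set the floor of 3 counts. Alternatives were other scalings and filters, DESeq2 1.42.0, only the 2 groups compared, a replicate block and each library left out. Gene positions and exon lengths came from GENCODE 44, promoters from RefSeq (GRCh38.p14). The steps were tested on simulated data. The genes of interest, the other lists and the rule for named genes (all 10 genes, all paralogs, every listed gene that passed in any comparison, and the 5 genes most like CTGF) were chosen with earlier results of these data known. Genes named outside this rule (STK3, STK4, NF2 and single markers) were chosen after their values were seen. The p-values set each difference between groups against a spread estimated from all 6 libraries together, and refer to these libraries only.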

Additional observations from a re-analysis of the deposited data

How the results depend on the processing

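The 24 values of the tested genes of interest were recomputed under 14 alternatives, which gave 336 values. Of these, 274 kept direction and side of the threshold, 40 lost the call, 18 gained one and 4 changed sign. The sign changed for AMOTL1 in 6WP against WT (-0.40, and 0.42 without 6WP replicate 1) and in 6WP against AM (-0.15, and 0.68) and for AJUBA in 6WP against AM (-0.14, and 0.49) without 6WP replicate 2. It changed for CYR61 in 6WP against AM (-0.26, and 0.70 without 6WP replicate 2) without 6WP replicate 1. Alternatives for the other listed genes, chosen after seeing the data, kept 301 of 418 values and lost 117 calls, with none reversed, and each of these 30 calls was lost without at least 1 library.

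In 6WP against WT, 440 genes passed, against 894 with no filter beyond 1 count, 1124 by DESeq2 and 96 with only the 2 groups fitted. Leaving out 1 library gave 0 to 3870 genes (0 without either WT library) and 0 to 7 of the 10 genes of interest (0 without either WT library, each with 3 at an unadjusted p under 0.05), where the fit to only 2 groups gave 1. In 6WP against AM the 2-group fit gave 1309 genes and 2 of the 10, and leaving out 1 library gave 116 to 6807 genes and 0 to 6 of the 10 (0 without either AM library, each with 4 at an unadjusted p under 0.05). DESeq2 was not run with a library left out. In AM against WT the 2-group fit gave 6620 genes and 7 of the 10, and leaving out 1 library gave 67 to 6654 genes and 1 to 7 of the 10. With a library left out, the lone sample of its group is assumed to vary like the others. The cause was not tested. YAP1 in 6WP against WT lost its call in 8 alternatives, among them upper quartile scaling (adjusted p = 0.0507) and library size only (0.0573).

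The replicate numbers were not shown to pair the samples (correlations of deviations 0.0395, 0.0873 and -0.0206 for WT with AM, WT with 6WP and AM with 6WP). With the number as a block, 393, 3069 and 2485 genes passed (6WP against WT first, AM against WT last), of which 343, 2846 and 2307 also passed without it, and 2, 4 and 4 of the 10 genes of interest, YAP1 in 6WP against WT being lost (adjusted p = 0.0627). With 2 libraries per group and under 20 CPM for CTGF, CYR61 and AMOTL2, small differences were not detectable, and ANKRD1 and AXL, under 3 counts in every library, allow no comparison between groups.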
